A study of Mus musculus with 12 samples.

Results

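Epiblast stem cells (EpiSCs) were compared with mouse embryonic stem cells (ESCs) sorted for an intermediate level of the orphan nuclear receptor Esrrb, and 6 of the 12 arrays of the series were used for the comparison itself (3 EpiSC and 3 EsrrbMed). The EpiSCs were a late bud stage, embryo-derived TNG line with a TdTomato reporter joined to Esrrb through a 2a peptide, grown in N2B27 with activin and FGF; the parental TNG line carries a GFP-IRES-Puro cassette in 1 Nanog allele, and no sort of these cells is described. The EsrrbMed cells were E14Tg2a ESCs of a single clonal line in which a destabilised GFP was joined to both Esrrb alleles. They were grown in serum and LIF and sorted as SSEA-1 positive cells with medium GFP. Before the sort, the ESCs were plated at 3000 cells per square cm and cultured for 3 days. No plating density or culture time is given for the EpiSCs. The other 6 arrays held the SSEA-1 positive EsrrbHi and EsrrbNeg fractions of the same ESC line (3 arrays each) and entered only the estimate of the chip difference and the values given beside the main comparison. The comparison asks how primed cells with little Esrrb differ from ESCs that express it. Cell state, genetic background, reporter, culture medium and sorting differed together between both groups, plating may have as well, and these cannot be told apart.

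Naive pluripotency is the state of the preimplantation epiblast and of ESCs grown with LIF. It is held by a network of transcription factors, among them Esrrb, Klf4, Tfcp2l1, Nanog and Tbx3, with LIF acting through STAT3. Primed pluripotency is the state of the postimplantation epiblast and of EpiSCs, which depend on activin and FGF signalling, keep Oct4 and Sox2 and carry low levels of genes of the primitive streak. Genes of the germline and of the naive state are commonly silenced by DNA methylation on the way from one state to the other.

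RNA was measured on Illumina MouseWG-6 v2 bead arrays, and all values below are normalised log2 intensities, so that a difference of 1 is a 2-fold change. All 3 EpiSC arrays and EsrrbMed replicate 3 lay on 1 chip (chip 2), and EsrrbMed replicates 1 and 2 on the other. Values per array are given as normalised, while each log2 change (EpiSC minus EsrrbMed, ± SE) comes from a limma fit over the 12 arrays that removed the chip difference, which only the ESC arrays could supply. Of the features tested, 2.04% were called between chips, with a median absolute chip difference of 0.116. EsrrbNeg replicate 3, the only EsrrbNeg array on chip 2, lay closer to the EpiSC arrays than EsrrbNeg replicates 1 and 2 did, so that part of its difference from them enters the chip term. The number of genes called between EpiSC and EsrrbMed was 3605 without it and 3383 with it. EpiSC arrays detected 13979 to 14635 probes and EsrrbMed arrays 13333 to 14764 (detection p of at most 0.01), and the median probe intensity was 85.9 to 87.9 in EpiSC and 84.2 to 97.9 in EsrrbMed. The labels do not say whether replicates came from separate cultures. The authors describe the array values of the sorted ESC populations as coming from 3 independent experiments, and that description does not name the EpiSCs. The p-values measure only the spread between these samples, and the number of arrays limits their precision.

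A total of 11089 features passed the filter on detection (1 probe per gene, 8487 with a gene symbol), and 3383 of them (30.5%) were called at an adjusted p of at most 0.05 and a change of at least 1.5-fold. EpiSC was higher in 1894 (17.1%) and lower in 1489 (13.4%), and these are the shares against which the counts of each gene list below are read. List counts against EsrrbNeg are read against the shares of that comparison, 12.1% higher and 8.96% lower in EpiSC. The median change over all features was −0.0019 and the median absolute change 0.36, with quartiles of −0.34 and 0.38. The number called was 2063 with a larger offset before the log, 1438 without background correction and 1466 in the values that the authors had normalised, and the cause of these lower counts was not tested. Changes of at least 4-fold were called in 148 features that rose and 153 that fell, and of at least 16-fold in 5 and 10, of which 3 and 1 were probes without a gene symbol that are not named here. The 3 EpiSC and 3 EsrrbMed arrays did not overlap in 3328 of the 3383 called features, against 64.6% of all features. Where a called gene is described below as without overlap, this therefore adds little to its call. A total of 355 features that rose were detected on no EsrrbMed array, and 239 that fell were detected on no EpiSC array. The direction of such features was largely set by the filter, in the gene lists below as well. For such a gene the fold is a lower bound, in which the group without detection is set at the higher of its own signal and the lowest detected signal of each array. These bounds use normalised means without the chip term. They are no lower bound for the fitted fold and can exceed it, as they did for Fgf5, Pkdcc, Cdx2, Fst and Gsc.

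Distances between whole arrays were large against the spread of replicates. The root mean square log2 difference over all features was 0.806 to 0.846 between an EpiSC array and EsrrbMed replicate 3, and 0.798 to 0.838 between an EpiSC array and EsrrbMed replicates 1 and 2 on the other chip. Pairs within EpiSC differed by 0.243 to 0.265, and pairs within EsrrbMed by 0.196 on 1 chip and 0.267 to 0.272 across chips. EpiSC lay farther from EsrrbHi (0.848 to 0.887 on the same chip) and nearer to EsrrbNeg (0.491 to 0.538 on the same chip and 0.635 to 0.722 across chips). These distances share the EpiSC arrays and are given as a description.

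**Figure D1:**
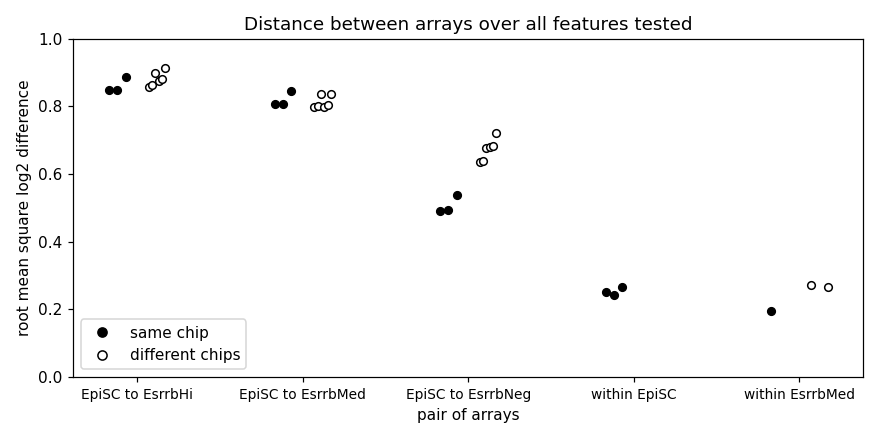
Root mean square log2 difference over the 11089 features for each pair of arrays (y axis, log2 units), for EpiSC against EsrrbHi, EsrrbMed and EsrrbNeg and for pairs within EpiSC and within EsrrbMed (x axis). Filled points are pairs on 1 chip and open points pairs across chips; every EpiSC to EsrrbMed pair lies at 0.798 or above, while no pair within EpiSC or EsrrbMed exceeds 0.272.

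The cell labels were first checked against defining markers. Esrrb, the gene that the ESC sort was based on, measured 6.55, 6.0 and 6.43 in the EpiSC arrays and 11.30, 11.18 and 11.32 in the EsrrbMed arrays, a change of −4.84 ± 0.16, adjusted p = 2.76e-10 with limma. No EpiSC array came near an EsrrbMed array. Its signal in EpiSC nevertheless stayed above that of EsrrbNeg (5.80, 5.61 and 5.50), by 0.79 after the chip term (adjusted p = 0.00137). Of 7 naive markers 6 were lower in EpiSC and the seventh, Nr0b1, was undetected in both groups; the mean log2 level of the 7 was 5.01 to 5.15 in EpiSC and 8.06 to 8.31 in EsrrbMed. Of 7 primed markers T was not on the array and 5 of the other 6 were higher in EpiSC, with a mean level of 8.61 to 8.73 in EpiSC and 6.30 to 6.69 in EsrrbMed. The exception was Otx2.

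Among genes with a symbol whose EpiSC and EsrrbMed arrays did not overlap, the largest rise was that of Fgf5, a fibroblast growth factor that marks the postimplantation epiblast. Fgf5 measured 10.17, 10.23 and 10.38 in EpiSC and was undetected in EsrrbMed (4.52, 4.65 and 4.80), a change of 5.12 ± 0.28, adjusted p = 1.82e-08. Its fitted fold was 34.7, below its bound of 46.8 without the chip term. Serpinh1, the collagen chaperone HSP47, measured 11.54, 11.25 and 11.29 in EpiSC and 6.47, 6.59 and 6.43 in EsrrbMed (4.69 ± 0.16, adjusted p = 2.76e-10, a fitted 25.8-fold). For both genes the 3 EpiSC arrays lay within 0.3 of each other. Cdx2, a caudal-type homeobox factor of the posterior embryo and of trophectoderm, measured 7.85, 8.73 and 8.74 in EpiSC. It was undetected in EsrrbMed at 4.51, 4.63 and 4.40 (3.59 ± 0.34, adjusted p = 1.64e-06). Its fitted fold was 12.0, below its bound of 13.3 without the chip term. The homeobox gene En1 of the midbrain-hindbrain boundary measured 8.66, 8.73 and 8.75 in EpiSC and 4.74, 5.13 and 4.95 in EsrrbMed (3.36 ± 0.30, adjusted p = 1.05e-06). EpiSC replicate 1 was the lowest EpiSC array for Cdx2. The other 8 of the 12 largest rises among such genes were Pkdcc, a secreted tyrosine kinase (3.96 ± 0.37), Chac1, a glutathione-degrading enzyme (3.94 ± 0.45), Prickle1 of planar cell polarity (3.90 ± 0.25), Lor, the cornified envelope protein loricrin (3.75 ± 0.49), Serpinf1, pigment epithelium-derived factor (3.61 ± 0.25), Tdrkh, a tudor-domain protein of the piRNA pathway (3.48 ± 0.24), Fst, which binds and inhibits activin (3.42 ± 0.38), and the immunoglobulin-family receptor Igdcc3 (3.40 ± 0.23).

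Among the falls of genes chosen in the same way, the largest was Ooep, a protein of the subcortical maternal complex of the oocyte, with 5.05, 6.78 and 4.76 in EpiSC and 11.41, 10.97 and 11.27 in EsrrbMed (−5.65 ± 0.43, adjusted p = 2.56e-07). Zfp42, the zinc finger protein REX1 and a widely used marker of naive ESCs, measured 5.26, 4.96 and 4.76 in EpiSC and 10.69, 10.58 and 10.69 in EsrrbMed (−5.49 ± 0.17, adjusted p = 2.76e-10). Tcl1, a coactivator of the kinase Akt, measured 5.03, 4.81 and 4.78 in EpiSC and 9.16, 8.99 and 9.38 in EsrrbMed (−4.44 ± 0.11, adjusted p = 7.02e-11). All EsrrbMed arrays of these genes were within 0.5 of each other, although EpiSC replicate 2 stood above the other EpiSC arrays for Ooep. Besides Esrrb, the other 8 of the 12 largest such falls were the F-box gene Fbxo15 (−4.53 ± 0.24), melanoregulin Mreg (−4.33 ± 0.20), the muscle myosin light chain Mylpf (−4.09 ± 0.24), the germ cell RNA-binding gene Rbmxl2 (−4.07 ± 0.44), Cpsf4l, a paralogue of a cleavage and polyadenylation factor (−4.05 ± 0.13), the ribosomal protein S4-like gene Rps4l (−3.97 ± 0.46), Tfcp2l1 (−3.95 ± 0.15) and Dppa5a (−3.91 ± 0.73). Dppa5a encodes a KH-domain RNA-binding protein, and its EpiSC arrays spread widely (8.85, 11.95 and 8.36). Its call was lost on chip 2 alone (log2 change −3.88, adjusted p = 0.063).

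**Figure D2:**
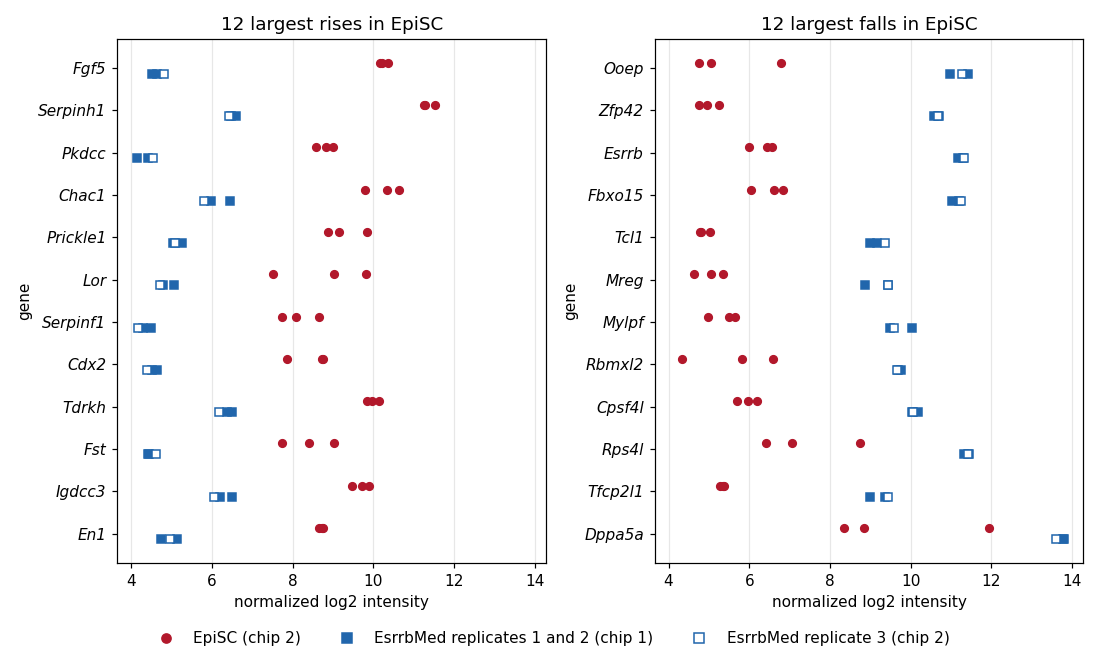
Normalised log2 intensity (x axis) of the 12 genes with the largest rises (first panel) and the 12 with the largest falls (second panel) among genes with a symbol whose groups did not overlap, 1 row per gene. Red circles are EpiSC arrays (chip 2), filled blue squares EsrrbMed replicates 1 and 2 (chip 1) and open squares EsrrbMed replicate 3 (chip 2); the lack of overlap was part of the choice of genes, and the EpiSC arrays spread most in Dppa5a, Lor, Rps4l and Rbmxl2.

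The fall of the naive network was broad. Of 25 naive factors listed, 23 were on the array and 21 were tested, and 19 of them fell in EpiSC and none rose, with a median change of −2.13 and no positive value. Among the 19, 3 were undetected on all EpiSC arrays, so the filter largely set their direction. The median level of the 21 was 5.60 in EpiSC and 9.17 in EsrrbMed. Tfcp2l1, a LIF-induced transcription factor, measured 5.35, 5.27 and 5.38 in EpiSC and 9.37, 8.99 and 9.44 in EsrrbMed, and the Krüppel-like factor Klf4 5.47, 6.23 and 5.09 in EpiSC and 7.66, 7.22 and 7.68 in EsrrbMed (−2.13 ± 0.28, adjusted p = 2.77e-05). Its relative Klf5 kept a high level, at 9.21, 9.92 and 9.66 in EpiSC and 11.56, 11.60 and 11.50 in EsrrbMed (−1.90 ± 0.16, adjusted p = 7.31e-07). None of these 3 overlapped between groups. Genes of the list outside the rule for named genes, chosen here after their values were seen, included the nuclear receptor Nr5a2 (−3.64 ± 0.15), the maternal factor Dppa3 (−3.52 ± 0.14), the T-box factor Tbx3, undetected in EpiSC (−1.91 ± 0.14), and Klf2 (−2.30 ± 0.54). The members not called were Prdm14 (−0.51 ± 0.16) and the homeobox gene Gbx2 (−0.30 ± 0.18, adjusted p = 0.168), whose EpiSC arrays (9.72, 9.99 and 10.19) lay only just below its EsrrbMed arrays (10.63, 10.37 and 10.24). Across bulk arrays such as these, fewer cells that carry a transcript and less of it per cell cannot be told apart. Against EsrrbNeg, on the same EpiSC arrays, 12 of the 21 were lower in EpiSC and 2 higher (Esrrb and Nanog), with a median of −0.82. The shares over all features were 8.96% lower and 12.1% higher.

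The promoter of Zfp42 is shown because this gene had the largest fall after Ooep and its promoter window holds an octamer, the letters that Oct4 and its relatives bind. It covers the 250 bases before and 50 after the gene's start (GRCm38.p6, RefSeq; chr8:43306960-43307259, minus strand), with the octamer ATTTGCAT, searched on both strands, in capitals.
Zfp42: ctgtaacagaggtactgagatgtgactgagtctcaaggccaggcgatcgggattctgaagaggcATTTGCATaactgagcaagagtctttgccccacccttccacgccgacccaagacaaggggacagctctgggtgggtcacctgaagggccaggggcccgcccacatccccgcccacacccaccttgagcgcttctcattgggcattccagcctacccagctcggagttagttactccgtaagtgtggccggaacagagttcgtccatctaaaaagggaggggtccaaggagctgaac
The octamer occurred in 1.75% of 27025 RefSeq promoters of this length. Of the 21 naive factors tested 12 had an entry in the promoter table, and Zfp42 was the 1 with the octamer. A match here and below is a match of letters and not a measured binding site.

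Factors common to both states changed less. Of 14 shared pluripotency factors, 12 were on the array and 10 tested; 4 fell, none rose and the median change was −0.56. Sox2 measured 6.53, 6.82 and 6.10 in EpiSC and 8.45, 8.77 and 8.37 in EsrrbMed (−1.82 ± 0.21, adjusted p = 8.04e-06), with no overlap. A second, dimmer probe of Sox2 was also called but changed less, by −0.70. Pou5f1, which encodes Oct4, measured 10.72, 10.91 and 10.88 in EpiSC and 11.16, 11.14 and 11.48 in EsrrbMed, and its change of −0.58 ± 0.13, adjusted p = 0.00167 missed the fold threshold at a fitted 1.49-fold, while a second probe of Pou5f1 passed it at −0.63. The probe reported passed the threshold under 11 of the alternatives tried, with values of −0.59 to −0.72, and the 3 EpiSC arrays lay below all 3 EsrrbMed arrays. Nanog, counted in the naive list, measured 9.41, 9.33 and 9.0 in EpiSC and 9.98, 9.79 and 10.56 in EsrrbMed (−1.18 ± 0.19, adjusted p = 0.000187), and in EsrrbNeg it was lower still, at 8.30, 7.77 and 8.53. A second probe of Nanog changed by −1.88. Because the EpiSC line has a cassette in 1 Nanog allele, its cell state and its number of intact alleles cannot be told apart for this gene. The other called members were Zscan10, a zinc finger partner of Oct4 and Sox2 (−0.93 ± 0.15), the telomere and replication-timing factor Rif1 and the RNA-binding protein L1td1. Rif1 (−1.12 ± 0.31) and L1td1 (−0.61 ± 0.13) lost their calls without EsrrbMed replicate 3, at −0.76 and −0.46, and L1td1 also without EpiSC replicate 2, at −0.57.

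Genes of the primed epiblast rose in part. Of 20 listed, 19 were on the array and 17 tested, of which 9 rose and 2 fell, with a median of 0.67. Among the 9, 2 were undetected on all EsrrbMed arrays, so the filter largely set their direction. Besides Fgf5, the SoxC factor Sox11 measured 9.70, 10.04 and 9.75 in EpiSC and 7.67, 8.09 and 7.78 in EsrrbMed (1.96 ± 0.14, adjusted p = 1.7e-07). The POU factor Pou3f1 (Oct6) measured 9.83, 10.05 and 9.92 in EpiSC and 7.64, 8.45 and 7.88 in EsrrbMed (1.85 ± 0.23, adjusted p = 1.95e-05). Both were above EsrrbMed on every EpiSC array, and Pou3f1 measured 10.36, 10.44 and 10.38 in EsrrbNeg. The spalt factor Sall2 measured 6.79, 6.47 and 6.94 in EpiSC and 4.97, 5.35 and 5.15 in EsrrbMed (1.42 ± 0.16, adjusted p = 8.6e-06), and the Nodal and Wnt antagonist Cer1 was undetected in EsrrbMed and rose by 1.02 ± 0.17. Several primed genes were not called. Otx2, the head and epiblast homeobox factor, measured 9.21, 9.21 and 9.08 in EpiSC and 8.02, 8.55 and 8.55 in EsrrbMed (0.54 ± 0.22, adjusted p = 0.055), the TGF-β ligand Nodal 9.67, 10.25 and 9.08 in EpiSC and 9.93, 9.95 and 9.80 in EsrrbMed (−0.23 ± 0.24, adjusted p = 0.441), and the de novo methyltransferase Dnmt3b 12.71, 12.78 and 12.70 in EpiSC and 12.58, 12.77 and 12.63 in EsrrbMed (0.11 ± 0.10, adjusted p = 0.375). The EpiSC arrays were all higher for Otx2 and overlapped EsrrbMed for the other pair. The members that fell, Foxp1 (−1.42 ± 0.16) and the FGF-responsive ETS factor Etv5 (−1.18 ± 0.12), lie outside the rule for named genes. Against EsrrbNeg the list had 4 members higher in EpiSC and 4 lower (12.1% and 8.96% of all features), and a median of 0.13.

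Genes of the primitive streak, the site where mesoderm and endoderm form, were high in EpiSC throughout those that could be measured. Of 20 listed, 18 were on the array but only 9 were tested, and 7 of these passed the detection filter while undetected on all EsrrbMed arrays, so their direction was largely set by the filter. The count of 9 higher is therefore given as a description. Wnt8a, a posterior Wnt ligand, measured 7.56, 7.41 and 8.12 in EpiSC and 4.21, 4.21 and 4.21 in EsrrbMed (3.26 ± 0.26, adjusted p = 4.29e-07, at least 7.93-fold). Fgf8, the streak FGF ligand, measured 8.36, 7.48 and 7.90 in EpiSC and 4.25, 4.25 and 4.39 in EsrrbMed (3.23 ± 0.36, adjusted p = 7.35e-06, at least 9.23-fold). The organiser homeobox gene Gsc measured 8.03, 7.92 and 7.79 in EpiSC and 4.60, 4.59 and 4.67 in EsrrbMed (2.97 ± 0.35, adjusted p = 1.01e-05). The fitted fold of Gsc was 7.85, below its bound of 9.21 without the chip term. EsrrbMed was at background for all 3 genes. The T-box factor Eomes measured 6.50, 7.26 and 7.14 in EpiSC and 4.33, 4.35 and 4.28 in EsrrbMed (at least 4.79-fold). Sp5, a Wnt-responsive zinc finger factor that EsrrbMed did express, measured 7.64, 9.17 and 7.93 in EpiSC and 5.77, 5.60 and 5.63 in EsrrbMed (2.42 ± 0.42, adjusted p = 0.000326), with EpiSC replicate 2 the highest. On chip 2 alone the median of the 9 was 2.69, against 2.42 in the fit with the chip term, and against EsrrbNeg all 9 were also higher in EpiSC with a median of 1.98.

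Of 21 Hox genes, the position factors of the body axis, 20 were on the array and 9 were tested, all of which were undetected in EsrrbMed and detected on every EpiSC array, so again the filter set the direction. Hoxc9 measured 7.52, 7.10 and 7.58 in EpiSC and 4.14, 4.11 and 4.23 in EsrrbMed (2.89 ± 0.27, adjusted p = 1.62e-06, at least 6.46-fold). At least 3.01-fold to 5.02-fold higher levels were measured for Hoxa5, Hoxc6 and Hoxa7, and the rises of Hoxd8 (1.82 ± 0.16) and Hoxb2 (1.49 ± 0.15) were smaller. Genes of all 4 Hox clusters were thus among those detected in EpiSC. Among 14 genes of definitive endoderm and node, 7 were tested and 5 were higher (median 0.90), 2 of them undetected on all EsrrbMed arrays. Lefty1, a secreted Nodal inhibitor, measured 11.71, 11.37 and 10.80 in EpiSC and 9.37, 9.09 and 9.02 in EsrrbMed (2.08 ± 0.26, adjusted p = 1.79e-05), and the BMP antagonist chordin, Chrd, rose by 1.87 ± 0.21. Shh measured 4.69, 5.17 and 5.17 in EpiSC and was undetected in EsrrbMed (4.13, 4.14 and 4.12). The fifth, the forkhead factor Foxa1, rose by 0.73 ± 0.25, a call lost without EsrrbMed replicate 3 (0.43) or EpiSC replicate 3 (0.50). Only 3 of 18 neural ectoderm genes were tested, of which the intermediate filament Nes measured 7.17, 7.17 and 7.44 in EpiSC and 4.35, 4.88 and 4.60 in EsrrbMed (2.57 ± 0.20, adjusted p = 3.92e-07), Ncam1 rose by 0.99 ± 0.15 and Map2 was not called (−0.03 ± 0.14). The neural markers Sox1, Pax6 and Hes5 were undetected on all EpiSC arrays.

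Extraembryonic and fibroblast genes were examined because such cells can be present in EpiSC cultures. Of 6 markers of extraembryonic endoderm, Gata4, Sox17, Sox7 and Pdgfra were undetected on every EpiSC array and Gata6 was detected on 2 of 3, and the mean level of the 6 was 4.64 to 4.74 in EpiSC and 4.41 to 4.53 in EsrrbMed. The longer list of 20 genes had 6 tested, of which Foxq1 (2.54 ± 0.31), the basement membrane collagen Col4a1 (0.97 ± 0.20) and the endocytic adaptor Dab2 (0.66 ± 0.19) rose and Apoe fell (−0.79 ± 0.11). Dab2 lost its call without EpiSC replicate 1 (0.48), and Col4a1 on chip 2 alone (0.84, adjusted p = 0.085). Of 5 trophectoderm markers Elf5 was undetected in EpiSC, Plac1 was detected on 1 EpiSC array, Cdx2 and Krt7 rose and Gata3, a zinc finger factor detected on 1 EpiSC array and all 3 EsrrbMed arrays, fell (−0.76 ± 0.15), with mean levels of 5.41 to 5.54 in EpiSC and 4.49 to 4.66 in EsrrbMed. In the longer trophectoderm list 7 of 14 were tested, 3 rose and 4 fell, but 2 of those that rose were undetected on all EsrrbMed arrays and 2 of those that fell on all EpiSC arrays, so that the filter set their direction. Rhox9, an X-linked homeobox gene, was undetected in EpiSC (4.57, 4.50 and 4.40) and measured 7.93, 7.23 and 7.52 in EsrrbMed (−3.04 ± 0.20, adjusted p = 9.67e-08), while the AP-2 factor Tfap2c stayed detected in EpiSC and fell by −1.09 ± 0.16.

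Fibroblast markers were low but uneven between EpiSC arrays. Col1a2 and Postn were undetected on all EpiSC arrays, Col3a1 and Lum were detected on EpiSC replicate 1 alone, and Col1a1 and Thy1 were higher than in EsrrbMed. The mean level of the 6 markers was 4.74 to 5.11 in EpiSC and 4.39 to 4.48 in EsrrbMed. In the list of 18 fibroblast and feeder genes, 8 were tested, 6 rose and 1 fell (median 0.96). Of the 6, Twist1, Dcn and Col1a1 were undetected on all EsrrbMed arrays and passed the filter through EpiSC, so the count and median are given as a description. Acta2, smooth muscle actin, measured 11.53, 9.78 and 9.62 in EpiSC and 7.99, 7.86 and 8.02 in EsrrbMed (2.06 ± 0.42, adjusted p = 0.00103), with EpiSC replicate 1 more than 1.7 above the other pair, and its call was lost on chip 2 alone (2.29, adjusted p = 0.0519). The proteoglycan decorin, Dcn, measured 6.45, 5.24 and 5.13 in EpiSC and 4.55, 4.58 and 4.30 in EsrrbMed (1.01 ± 0.33), and it lost its call without EsrrbMed replicate 3 (0.64). The part of such cells in the mesenchymal and matrix results was not tested.

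**Figure D3:**
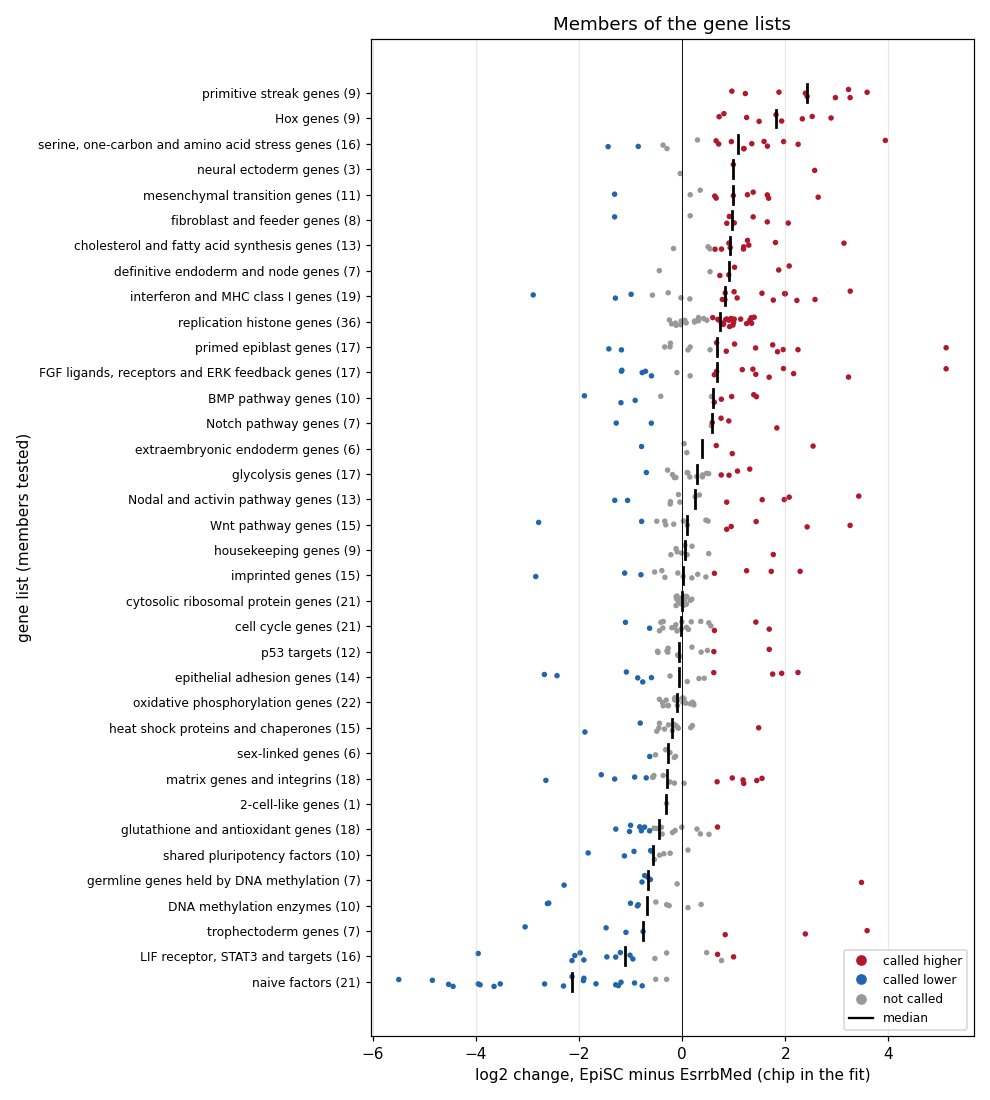
Log2 change (EpiSC minus EsrrbMed, x axis) of every tested member of each gene list (y axis), ordered by the list median, which is drawn as a black bar. Red points were called higher in EpiSC, blue points lower and grey points not called; medians run from 2.42 for primitive streak genes to −2.13 for naive factors, while ribosomal protein and oxidative phosphorylation genes cluster at 0.

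Signalling genes followed in both directions. LIF binds its receptor with Il6st and acts through Jak kinases and STAT3. Of 17 genes of this pathway and its targets, 16 were tested, 10 fell and 2 rose (median −1.10). The target Bcl3 was undetected in EpiSC (4.24, 4.47 and 4.55) and measured 6.59, 6.69 and 6.54 in EsrrbMed (−2.08 ± 0.11, adjusted p = 1.65e-08). The kinase Sgk1 measured 9.48, 9.92 and 9.39 in EpiSC and 11.65, 11.69 and 11.66 in EsrrbMed (−1.98 ± 0.15, adjusted p = 3.55e-07), and the kinase Pim3 fell by −1.46 ± 0.14. EpiSC and EsrrbMed arrays did not overlap in any of these. Of the components themselves, seen after the values, Stat3 (−1.29 ± 0.11), its feedback inhibitor Socs3 (−1.20 ± 0.15) and Il6st (−1.01 ± 0.19) fell, whereas the kinase Jak2 (1.0 ± 0.19) and the phosphatase Ptpn11 (0.69 ± 0.11) rose. Against EsrrbNeg 7 of the 16 were lower in EpiSC and 1 higher (8.96% and 12.1% of all features).

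FGF ligands, receptors and ERK feedback genes had 17 of 24 members tested, with 10 higher, 5 lower and a median of 0.67. Among the 10, 2 were undetected on all EsrrbMed arrays, so the filter largely set their direction. The ERK phosphatase Dusp4 measured 9.07, 9.46 and 9.48 in EpiSC and 7.0, 7.10 and 7.31 in EsrrbMed (1.97 ± 0.16, adjusted p = 5.93e-07). The immediate early factor Egr1 measured 10.36, 11.76 and 11.03 in EpiSC and 9.16, 9.59 and 9.16 in EsrrbMed (1.69 ± 0.35, adjusted p = 0.00121), and Fos 7.06, 8.77 and 6.92 in EpiSC and 4.93, 5.22 and 5.16 in EsrrbMed (2.16 ± 0.43, adjusted p = 0.000837). Both were highest in EpiSC replicate 2. Members that fell, outside the rule, were Etv5, the receptor Fgfr2 (−1.17 ± 0.21), the ligand Fgf4 (−0.77 ± 0.13), the feedback inhibitor Spry4 (−0.71 ± 0.18) and the adaptor Grb2 (−0.59 ± 0.13), so the feedback genes Dusp4 and Spry4 of the same pathway moved in opposite directions.

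For the Nodal and activin pathway, on which EpiSC culture rests, 13 of 18 genes were tested, 5 rose and 2 fell (median 0.25). Fst measured 7.73, 9.03 and 8.42 in EpiSC and was undetected in EsrrbMed at 4.42, 4.44 and 4.62 (3.42 ± 0.38, adjusted p = 6.66e-06). Its fitted fold was 10.7, below its bound of 12.9 without the chip term. Lefty1 is given above. The proprotein convertase Furin, which processes Nodal, measured 8.46, 8.21 and 8.48 in EpiSC and 6.49, 6.29 and 6.28 in EsrrbMed (1.98 ± 0.18, adjusted p = 1e-06), and the effector Smad3 8.39, 8.55 and 8.43 in EpiSC and 6.83, 6.71 and 6.82 in EsrrbMed (1.55 ± 0.11, adjusted p = 1.34e-07). The ligand Gdf3 (−1.30 ± 0.11) and the convertase Pcsk6 (−1.06 ± 0.16) fell. In all 4 of these genes every EpiSC array was on 1 side of every EsrrbMed array. The receptors Acvr1b (0.25 ± 0.11) and Acvr2b (0.34 ± 0.11) and the effector Smad2 (−0.23 ± 0.13) were not called.

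BMP pathway genes had 10 of 16 members tested, 5 higher and 3 lower (median 0.60). The ligand Bmp4 measured 7.22, 5.87 and 6.07 in EpiSC and 8.23, 8.24 and 8.29 in EsrrbMed (−1.89 ± 0.30, adjusted p = 0.000161), with EpiSC replicate 1 the highest of its group. The ligand Bmp7 was undetected in EsrrbMed and rose by 1.44 ± 0.16, and the receptor Bmpr2 rose by 1.39 ± 0.13. The BMP target Id2 fell by −0.91 ± 0.23, a call lost on chip 2 alone (−0.81, adjusted p = 0.0881). Id1 (−1.18 ± 0.39) lost its call without EsrrbMed replicate 3 (−1.20, adjusted p = 0.101) and without EpiSC replicate 3 (−0.78, adjusted p = 0.0625).

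Wnt pathway genes had 15 of 21 members tested, 5 higher and 2 lower (median 0.10). Notum, a secreted enzyme that inactivates Wnt ligands, measured 4.58, 5.05 and 5.0 in EpiSC and 7.68, 7.51 and 7.69 in EsrrbMed (−2.78 ± 0.15, adjusted p = 1.65e-08). It was detected on 2 of the 3 EpiSC arrays and on all EsrrbMed arrays. The receptor Fzd2 (1.44 ± 0.16) and the feedback scaffold Axin2 (0.87 ± 0.17) rose, while β-catenin, Ctnnb1, was not called (0.10 ± 0.10). The rise of the ligand Wnt5a (0.95 ± 0.19) was not seen with its other probe (−0.05). In the Notch pathway 7 of 16 genes were tested, 4 rose and 2 fell (median 0.59). The transcriptional repressor Hes1 measured 7.96, 8.29 and 7.41 in EpiSC and 6.20, 5.83 and 5.88 in EsrrbMed (1.84 ± 0.23, adjusted p = 1.68e-05), Hes6 rose by 0.91 ± 0.14, the receptor Notch3 rose by 0.76 ± 0.15 and Notch4 fell by −1.28 ± 0.16. The receptor Notch1 (−0.60 ± 0.18) and the coactivator Maml1 (0.59 ± 0.14) were close to the fold threshold. Without EsrrbMed replicate 3 both calls were lost (Notch1 −0.62, adjusted p = 0.0727; Maml1 0.50, adjusted p = 0.0610), and so they were with several other single arrays left out, at −0.55 to −0.46 for Notch1 and 0.52 to 0.58 for Maml1.

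Among 17 genes of DNA methylation, 13 were on the array and 10 were tested; 5 fell, none rose (limma; the highest change was 0.37 for Mbd1) and the median was −0.68. Dnmt3l, the cofactor of the de novo methyltransferases, measured 10.61, 10.42 and 9.91 in EpiSC and 13.12, 13.17 and 12.93 in EsrrbMed (−2.61 ± 0.17, adjusted p = 9.67e-08). Tet1, which oxidises 5-methylcytosine, measured 7.64, 7.73 and 6.80 in EpiSC and 10.30, 10.38 and 10.02 in EsrrbMed (−2.58 ± 0.22, adjusted p = 7.01e-07). Neither overlapped between groups. Trim28 (−1.0 ± 0.10), Mbd3 (−0.87 ± 0.15) and Gadd45a (−0.85 ± 0.10) fell less. Maintenance factors were not called, with 8.62, 8.63 and 8.68 in EpiSC and 9.01, 8.88 and 8.94 in EsrrbMed for Dnmt1 (−0.30 ± 0.11) and a change of −0.25 ± 0.09 for Uhrf1. Germline genes that DNA methylation is known to hold silent had 7 of 21 members tested, 5 lower and 1 higher (median −0.66). Among the 5, Dazl and Piwil2 were undetected on all EpiSC arrays, so the filter largely set their direction. The count and median are therefore given as a description. Tex19.1 measured 7.23, 7.21 and 7.58 in EpiSC and 9.70, 9.65 and 9.72 in EsrrbMed (−2.29 ± 0.14, adjusted p = 3.76e-08), and the RNA-binding gene Dazl was undetected in EpiSC (4.23, 4.48 and 4.30) and at 5.01, 4.75 and 5.04 in EsrrbMed (−0.66 ± 0.14). Piwil2, a PIWI protein, also fell (−0.73 ± 0.12), as did the tubulins Tuba3a (−0.78 ± 0.15) and Tuba3b (−0.61 ± 0.16), near-identical copies whose signals cannot be separated with certainty; Tuba3b lost its call without EsrrbMed replicate 3 (−0.57, adjusted p = 0.0579), EpiSC replicate 2 (−0.53) or single EsrrbHi arrays (−0.55 and −0.57). Against them stood Tdrkh, another gene of the piRNA pathway, with 9.97, 9.85 and 10.15 in EpiSC and 6.50, 6.39 and 6.18 in EsrrbMed (3.48 ± 0.24, adjusted p = 1.14e-07).

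Imprinted genes were called in both directions, with 4 higher and 3 lower of 15 tested and a median of 0.02. The changes that were called were large. Igf2, a growth factor expressed from the paternal allele, measured 12.09, 10.84 and 11.25 in EpiSC and 8.60, 8.26 and 8.70 in EsrrbMed (2.29 ± 0.39, adjusted p = 0.000254). Mest measured 5.0, 5.58 and 4.22 in EpiSC and 7.71, 7.55 and 7.87 in EsrrbMed (−2.84 ± 0.30, adjusted p = 4.44e-06). The groups were apart for both, although Mest spread by more than 1 within EpiSC. Grb10 (1.73 ± 0.13) and Ndn (1.25 ± 0.12) rose, and the non-coding RNA Rian (−1.11 ± 0.16), undetected in EpiSC, and Impact (−0.80 ± 0.11) fell. Of 6 sex-linked genes tested 1, the Xist antisense RNA Tsix, was called, at −0.63 ± 0.12, and it lost its call without EsrrbMed replicate 1 (−0.58), EsrrbHi replicate 3 (−0.55) or on chip 2 alone (−0.55).

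Metabolic genes changed by pathway. Of 24 genes of cholesterol and fatty acid synthesis, 13 were tested; 10 rose, none was called lower (limma; the lowest change was −0.17 for Acly) and the median was 0.93. Scd1, which desaturates stearoyl-CoA, measured 9.55, 9.71 and 9.77 in EpiSC and 6.32, 6.11 and 6.36 in EsrrbMed (3.14 ± 0.18, adjusted p = 2.69e-08). Fdps, farnesyl diphosphate synthase, measured 11.90, 11.87 and 11.88 in EpiSC and 10.55, 10.48 and 10.45 in EsrrbMed (1.29 ± 0.12, adjusted p = 1.78e-06). The 3 EpiSC arrays of Scd1 and Fdps agreed to within 0.3 and lay above all EsrrbMed arrays. Scd2 (1.81 ± 0.27), the lanosterol demethylase Cyp51 (1.27 ± 0.17), Dhcr7 (1.19 ± 0.16) and Pmvk (1.19 ± 0.19) of the sterol pathway rose as well. The medium of EpiSC held no serum and that of EsrrbMed did, and the part of the medium in this result cannot be told apart.

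Genes of serine and one-carbon metabolism and of the amino acid stress response had 16 of 21 members tested, 11 higher and 2 lower (median 1.08). Chac1 measured 10.35, 9.79 and 10.64 in EpiSC and 5.99, 6.45 and 5.82 in EsrrbMed (3.94 ± 0.45, adjusted p = 7.9e-06). Ddit4, an inhibitor of mTORC1, measured 10.25, 10.22 and 9.66 in EpiSC and 7.48, 8.01 and 7.49 in EsrrbMed (2.25 ± 0.23, adjusted p = 3.53e-06), and the pseudokinase Trib3 8.93, 9.33 and 8.42 in EpiSC and 6.96, 7.22 and 6.56 in EsrrbMed (1.97 ± 0.31, adjusted p = 0.000144). All 3 were above EsrrbMed on every EpiSC array. The stress factor Ddit3, known as CHOP (1.65 ± 0.25), and the serine synthesis enzyme Psat1 (1.59 ± 0.16) rose, as did, outside the rule, Atf4, the transcription factor of this response (1.20 ± 0.17), Asns (1.20 ± 0.23) and Mthfd2 (1.35 ± 0.16). In the opposite direction Gldc, the glycine decarboxylase, measured 10.18, 10.47 and 10.31 in EpiSC and 11.73, 11.78 and 11.77 in EsrrbMed (−1.43 ± 0.12, adjusted p = 6.3e-07). The other member that fell was the cytosolic enzyme Shmt1 (−0.85 ± 0.10), whereas mitochondrial Shmt2 rose (0.96 ± 0.17).

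Glutathione and antioxidant genes had 18 of 21 tested, 7 lower and 1 higher (median −0.45). Gsta4 measured 9.54, 9.47 and 9.48 in EpiSC and 10.73, 10.88 and 10.82 in EsrrbMed (−1.28 ± 0.12, adjusted p = 1.55e-06), and the lipid peroxidase Gpx4 11.08, 11.17 and 11.02 in EpiSC and 12.18, 12.02 and 12.18 in EsrrbMed (−1.0 ± 0.11, adjusted p = 6.07e-06). Gpx1 (−0.82 ± 0.11), Gstm1 (−0.79 ± 0.13) and the metallothionein Mt2 (−1.02 ± 0.20) also fell, and Mt1 (−0.73 ± 0.20) fell with a call lost without EpiSC replicate 1 (−0.46). The member that rose was sulfiredoxin, Srxn1 (0.69 ± 0.16), outside the rule. Glycolysis genes differed little as a group, with 4 higher and 1 lower of 17 tested and a median of 0.28. Among them Aldoc (1.31 ± 0.26), Eno2 (1.07 ± 0.17), Pfkm (0.91 ± 0.11) and the glucose transporter Slc2a3 (0.76 ± 0.18) rose and Pfkp fell (−0.69 ± 0.19), the last without a call when EpiSC replicate 1 (−0.51) or EsrrbMed replicate 3 (−0.49) was left out. The abundant enzymes Ldha (0.39 ± 0.12), Gapdh (0.10 ± 0.10) and Pkm (0.11 ± 0.10) were not called. None of 22 oxidative phosphorylation genes tested was called with limma, 7 had an unadjusted p under 0.05, and their changes ran from −0.44 to 0.23. Atp5b of the ATP synthase measured 13.53, 13.54 and 13.58 in EpiSC and 13.69, 13.63 and 13.51 in EsrrbMed (0.02 ± 0.09), a change whose sign turned under other scalings.

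Genes of cell adhesion and shape moved in a mixed way. Of 19 epithelial adhesion genes 14 were tested, 4 rose and 6 fell, with a median of −0.07. The tight junction gene Cldn4 measured 6.29, 6.51 and 5.95 in EpiSC and 8.86, 9.02 and 9.0 in EsrrbMed (−2.67 ± 0.17, adjusted p = 6.57e-08), and the epithelial factor Grhl2 5.05, 5.73 and 4.66 in EpiSC and 7.10, 7.33 and 7.76 in EsrrbMed (−2.42 ± 0.24, adjusted p = 2.54e-06). In contrast the keratin Krt8 measured 8.28, 8.46 and 8.51 in EpiSC and 6.19, 6.14 and 6.08 in EsrrbMed (2.25 ± 0.16, adjusted p = 2.03e-07). Its partner Krt18 (1.76 ± 0.14) and Krt19 (1.93 ± 0.25, undetected in EsrrbMed) rose too, so that keratins were higher in EpiSC while Cldn4, Grhl2 and the zinc finger factor Ovol1 (−1.08 ± 0.13) were lower. E-cadherin, Cdh1, measured 8.48, 8.72 and 8.51 in EpiSC and 8.77, 8.93 and 9.31 in EsrrbMed, a change of −0.59 ± 0.15 that only just passed the fold threshold. Of 15 genes of mesenchymal transition 11 were tested, 8 rose and 1 fell (median 0.99). Of the 8 that rose, 4 were undetected on all EsrrbMed arrays, so the filter largely set their direction. The count and median are therefore given as a description. The hyaluronan receptor Cd44 measured 7.41, 6.50 and 7.03 in EpiSC and was undetected in EsrrbMed at 4.20, 4.13 and 4.21 (2.64 ± 0.24, adjusted p = 1.44e-06). The repressor Zeb1 measured 6.90, 6.70 and 6.63 in EpiSC and 4.92, 4.88 and 4.85 in EsrrbMed (1.68 ± 0.19, adjusted p = 7.55e-06), and vimentin, Vim, 9.28, 9.35 and 9.14 in EpiSC and 7.35, 7.26 and 7.48 in EsrrbMed (1.65 ± 0.20, adjusted p = 1.27e-05). These 3 did not overlap between groups. Snai1 was not called (0.35 ± 0.18), and fibronectin, Fn1, went the other way (−1.31 ± 0.16).

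Matrix genes and integrins split by direction, with 6 of 18 tested higher and 5 lower (median −0.30). The laminin chain Lama1 measured 5.43, 5.28 and 4.97 in EpiSC and 7.95, 7.72 and 8.04 in EsrrbMed (−2.64 ± 0.15, adjusted p = 3.29e-08), and the basement membrane genes perlecan, Hspg2 (−1.57 ± 0.16), and nidogen, Nid1 (−1.31 ± 0.21), fell as well. Those that rose included tenascin, Tnc (1.55 ± 0.30), undetected in EsrrbMed and highest in EpiSC replicate 1, and the integrins Itga3 (1.45 ± 0.23) and Itgb5 (1.20 ± 0.11).

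Replication-dependent histone genes, which are expressed in S phase, were widely higher in EpiSC. Of 44 listed 41 were on the array and 36 tested; 21 rose, none was called lower (limma; the lowest change was −0.25) and the median was 0.73. H2bc12 measured 8.50, 8.96 and 9.27 in EpiSC and 7.53, 7.51 and 7.32 in EsrrbMed (1.40 ± 0.19, adjusted p = 4.73e-05), and H3c7 8.78, 9.50 and 9.63 in EpiSC and 7.97, 8.06 and 7.75 in EsrrbMed (1.35 ± 0.21, adjusted p = 0.000137). EpiSC replicate 1 was the lowest EpiSC array for both, but still above EsrrbMed. H3c1, H3c3, H3c4 and H3c6 rose by 1.25 to 1.34. Several H2A genes at very high signal were not called, among them H2ac13 (0.04 ± 0.11) and H2ac10 (0.05 ± 0.10). Histone genes are near-identical copies, so that a probe can hold the signal of several of them and the count is not one of independent genes. The count of members called higher was 17 to 22 when single EpiSC or EsrrbMed arrays were left out. In the same samples 21 cell cycle genes had 3 higher and 2 lower, below the background shares in sum, with a median of −0.01. The inhibitor p21, Cdkn1a, measured 7.93, 8.23 and 7.57 in EpiSC and 6.08, 6.16 and 6.07 in EsrrbMed (1.69 ± 0.18, adjusted p = 4.57e-06), cyclin D2, Ccnd2, rose by 1.43 ± 0.24 and cyclin E1, Ccne1, fell by −1.10 ± 0.10. Of the other pair, Top2a (−0.63 ± 0.15) lost its call without EsrrbMed replicate 3 (−0.37) or EpiSC replicate 3 (−0.51), and Cdkn1c (0.63 ± 0.12) without EsrrbMed replicate 3 (0.48) or EpiSC replicate 1 (0.58). Of 12 p53 targets, 2 were called, both higher (Cdkn1a and Sesn1), and the median was −0.06; Sesn1 (0.62 ± 0.11) lost its call without EpiSC replicate 3 (0.56) or EsrrbMed replicate 1 (0.58).

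The promoter of H2bc12, the histone gene with the largest rise, is shown with the octamer of histone promoters (ATTTGCAT, both strands searched) in capitals. The window covers 250 bases before to 50 after the start (GRCm38.p6, RefSeq; chr13:22035571-22035870, plus strand).
H2bc12: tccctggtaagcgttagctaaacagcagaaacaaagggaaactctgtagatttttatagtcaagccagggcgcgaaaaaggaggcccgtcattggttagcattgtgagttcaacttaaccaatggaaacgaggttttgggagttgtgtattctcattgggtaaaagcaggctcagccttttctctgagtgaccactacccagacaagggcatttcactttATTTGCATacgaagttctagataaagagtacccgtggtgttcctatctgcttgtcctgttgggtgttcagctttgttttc
The octamer was in the window of 6 of the 33 tested histone genes with a promoter searched (18.2%) and in 1.75% of the 27025 promoters searched. Of those 6, 3 were called higher (among them H2bc12) and none lower, and the others, such as H2bc3 (−0.25 ± 0.18), were not called, so that histone genes with and without the match were both among those that rose.

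Interferon and MHC class I genes were strongly but unevenly higher. Of 24 listed 19 were tested, of which 12 rose and 3 fell (median 0.84). Among the 12, 2 were undetected on all EsrrbMed arrays, so the filter largely set their direction. The interferon-induced GTPase Gbp2 measured 8.54, 8.70 and 8.91 in EpiSC and 4.77, 5.57 and 5.34 in EsrrbMed (3.26 ± 0.19, adjusted p = 3.93e-08). The class I gene H2-K1 measured 7.09, 7.41 and 7.47 in EpiSC and 4.68, 4.74 and 4.90 in EsrrbMed (2.23 ± 0.19, adjusted p = 6.37e-07), and the non-classical class I gene H2-T23 7.14, 7.66 and 7.59 in EpiSC and 4.70, 4.87 and 4.74 in EsrrbMed (2.58 ± 0.24, adjusted p = 1.78e-06). Their light chain, β2-microglobulin B2m, measured 8.91, 8.67 and 8.64 in EpiSC and 7.02, 7.19 and 6.74 in EsrrbMed (1.77 ± 0.17, adjusted p = 2.02e-06). Thus both chains of the class I molecule were higher on all EpiSC arrays. The peptide transporter Tap2 (1.99 ± 0.11) and the tetherin gene Bst2 (2.0 ± 0.20) rose too. Class I genes share sequence, so a probe of one can hold signal of another. The interferon-induced transmembrane genes went down. Ifitm1 measured 9.75, 10.17 and 9.65 in EpiSC and 12.81, 12.74 and 12.74 in EsrrbMed (−2.89 ± 0.15, adjusted p = 1.18e-08), and Ifitm3, a germ cell and ESC surface gene outside the rule, 9.73, 9.48 and 9.20 in EpiSC and 10.95, 11.11 and 10.85 in EsrrbMed (−1.29 ± 0.15, adjusted p = 7.84e-06). Against EsrrbNeg 7 members of the list were higher in EpiSC and 3 lower (12.1% and 8.96% of all features), and the median was −0.08.

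Promoters of 3 of these genes, from both directions, are shown with the interferon-response motif GAAANNGAAA (both strands searched, overlapping matches allowed) in capitals. Each window covers 250 bases before to 50 after the start on the gene's strand (GRCm38.p6, RefSeq): B2m at chr2:122147437-122147736 (plus), H2-T23 at chr17:36032652-36032951 (minus) and Ifitm3 at chr7:141010695-141010994 (minus).
B2m: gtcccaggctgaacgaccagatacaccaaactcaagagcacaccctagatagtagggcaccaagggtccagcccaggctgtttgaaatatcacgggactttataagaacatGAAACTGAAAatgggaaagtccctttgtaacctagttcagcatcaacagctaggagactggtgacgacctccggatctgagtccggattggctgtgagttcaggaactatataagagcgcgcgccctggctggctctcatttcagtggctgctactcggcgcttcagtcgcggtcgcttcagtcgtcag
H2-T23: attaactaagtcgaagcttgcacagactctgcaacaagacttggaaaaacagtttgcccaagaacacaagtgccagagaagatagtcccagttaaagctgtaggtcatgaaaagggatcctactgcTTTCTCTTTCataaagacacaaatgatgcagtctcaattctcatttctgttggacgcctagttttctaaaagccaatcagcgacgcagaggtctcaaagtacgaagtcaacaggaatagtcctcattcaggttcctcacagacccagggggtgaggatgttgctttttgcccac
Ifitm3: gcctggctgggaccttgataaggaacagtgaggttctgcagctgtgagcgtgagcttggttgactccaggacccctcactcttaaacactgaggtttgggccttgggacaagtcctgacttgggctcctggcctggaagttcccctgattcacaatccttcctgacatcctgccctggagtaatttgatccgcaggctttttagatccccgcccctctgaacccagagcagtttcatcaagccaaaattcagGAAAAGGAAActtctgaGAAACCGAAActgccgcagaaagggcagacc
In H2-T23 the capitals are the motif read on the opposite strand, and Ifitm3 holds 2 matches. The motif was in the window of 8 of the 18 tested members with a promoter searched (44.4%), against 3.49% of the 27025 promoters searched. Of these 8 genes 5 rose and 2 fell, so the letters occurred beside changes in either direction.

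Several further groups are given as a description. They cannot check the scale, because quantile normalisation gives all arrays the same distribution of values. None of 21 cytosolic ribosomal protein genes tested was called with limma and none had an unadjusted p under 0.05, with changes from −0.12 to 0.19. Their median change was −0.005, and −0.18 with median scaling in place of quantile normalisation. Of 9 housekeeping genes 1 was called, B2m, which is also in the MHC list. Heat shock proteins and chaperones had 1 higher and 2 lower of 15 tested (median −0.19), namely the cochaperone Bag3 (1.48 ± 0.16), the small heat shock protein Hspb1 (−1.88 ± 0.17) and the endoplasmic reticulum isomerase Pdia4 (−0.81 ± 0.11). Of 16 genes of the 2-cell-like state 9 were on the array and 1 was tested, Eif1a, which was not called (−0.31 ± 0.11, adjusted p = 0.0275).

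The EpiSC arrays differed among themselves in a small number of features, probes without a symbol included. A gap of at least 1 log2 unit between 1 array and both others of its group was found in 16 features for EpiSC replicate 1 (9 above and 7 below), in 20 for replicate 2 (19 above and 1 below) and in 7 for replicate 3 (5 above and 2 below), against 1, 3 and 7 features for EsrrbMed replicates 1, 2 and 3. The genes named here were chosen after their values were seen. EpiSC replicate 2 was nearest to EsrrbMed in several genes that fell. Dppa5a measured 8.85, 11.95 and 8.36 in EpiSC and 13.77, 13.80 and 13.60 in EsrrbMed, Klf2 7.34, 9.42 and 6.65 in EpiSC and 10.24, 10.11 and 10.03 in EsrrbMed, and Rps4l 7.06, 8.74 and 6.43 in EpiSC and 11.32, 11.46 and 11.42 in EsrrbMed. In each the second EpiSC value was the highest of its group but below EsrrbMed. Over the 21 naive factors EpiSC replicate 1 was the highest EpiSC array for 7, replicate 2 for 10 and replicate 3 for 4, so the pattern did not extend to all of them. Dppa4, a chromatin protein of pluripotent cells, was by contrast lowest in EpiSC replicate 3, at 10.01, 9.64 and 8.35 in EpiSC and 12.16, 12.18 and 12.01 in EsrrbMed. EpiSC replicate 1 was high for Acta2, Dcn and the secreted binding proteins Igfbp7 (7.17, 5.62 and 5.92 in EpiSC and 4.90, 4.81 and 4.69 in EsrrbMed) and Igfbp5 (8.82, 7.53 and 7.68 in EpiSC and 4.54, 4.46 and 4.46 in EsrrbMed). It is also the array with detected Col3a1 and Lum. EpiSC replicate 3 alone was high for the zinc transporter Slc30a3, at 6.81, 7.47 and 9.44 in EpiSC and 5.70, 5.62 and 5.31 in EsrrbMed.

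**Figure D4:**
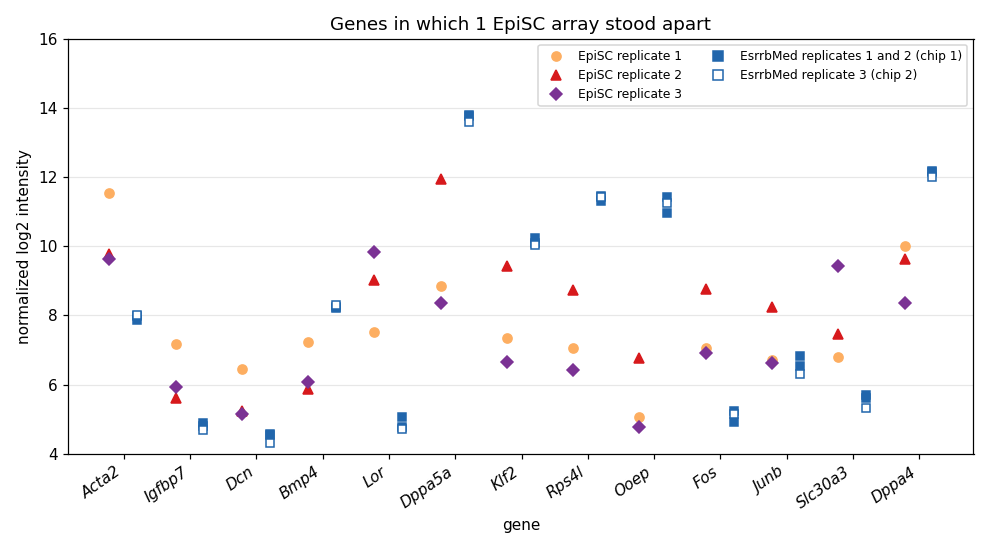
Normalised log2 intensity (y axis) of 13 genes chosen after their values were seen, most with a gap of at least 1 log2 unit between 1 EpiSC array and the other EpiSC arrays (x axis: genes). Circles, triangles and diamonds are EpiSC replicates 1, 2 and 3 and squares the EsrrbMed arrays; replicate 1 stands above for Acta2, Igfbp7, Dcn and Bmp4, replicate 2 for Dppa5a, Klf2, Rps4l, Ooep, Fos and Junb, and replicate 3 for Slc30a3.

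Changes were also placed along the chromosomes, in the order of the genes and without regard to distance. Over all 292 tested genes of chromosome 14 the median change was 0.35, while that of the other autosomes and of X lay between −0.06 and 0.13. Running medians over 31 neighbouring genes were 0.4 or more in 126 consecutive windows of chromosome 14, from Cnih1 to Polr3d, with a peak of 0.79. The next longest run, 32 windows on chromosome 13, lay in the histone cluster (H4c17 to H3c1) and peaked at 0.60. The 126 genes of the chromosome 14 stretch had a median of 0.58 (quartiles 0.28 and 0.94); 109 of them (86.5%) had a positive change, against 51% of the genes of other chromosomes, and 63 were called higher and 6 lower. Against EsrrbMed replicate 3, on the same chip, their medians were 0.68, 0.59 and 0.68 for EpiSC replicates 1, 2 and 3. Against EsrrbHi and EsrrbNeg, on the same EpiSC arrays, they were 0.63 and 0.53, and between EsrrbNeg and EsrrbMed, both of the ESC line, 0.07. The medians of the 103 genes before the stretch (0.06) and of the 63 after it (0.08) lay near 0. Their upper quartiles were 0.63 and 0.45, against 0.40 on other chromosomes. Before the stretch 27 genes were called higher and 13 lower, and after it 13 and 10. On the other chromosomes 1444 of 8178 genes were called higher and 1072 lower. Sall2 and Otx2, named above as higher or with positive values in EpiSC, lie in this stretch. So do Mmp14, which rose by 1.27, and Piwil2, which fell. The stretch was chosen after the values were seen, and line, medium and cell state, which differed together, cannot be told apart here.

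**Figure D5:**
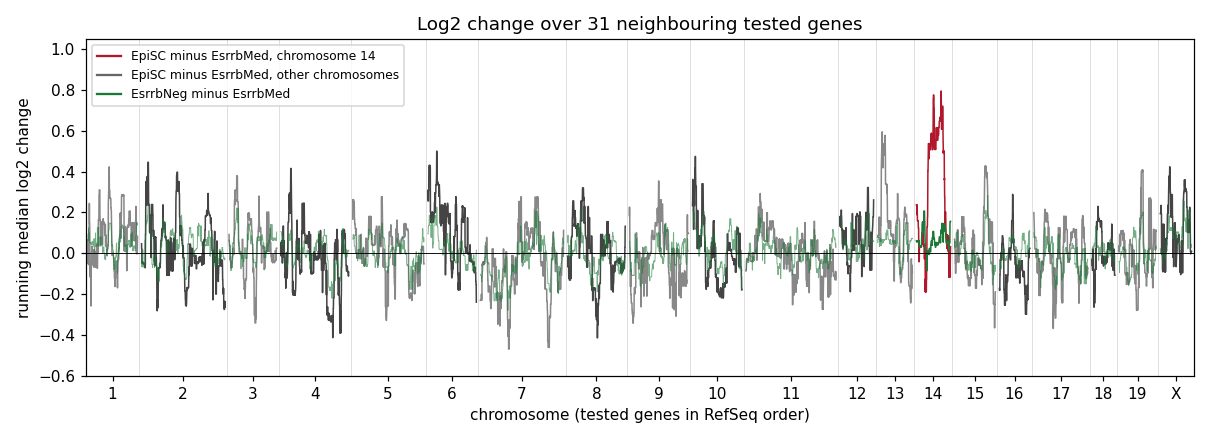
Running median of the log2 change over 31 neighbouring tested genes (y axis, log2 units) along the gene order of each chromosome (x axis, gene rank, chromosomes 1 to 19 and X). Red and grey lines are EpiSC minus EsrrbMed, red for chromosome 14 and grey for the others, and green lines EsrrbNeg minus EsrrbMed; the red line peaks at 0.79, where the green line shows no such stretch.

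Set side by side with the other ESC fractions, which share the EpiSC arrays, EpiSC differed in 3707 features from EsrrbHi (33.4%; 18.5% higher and 14.9% lower in EpiSC), in 3383 from EsrrbMed (30.5%) and in 2332 from EsrrbNeg (21%; 12.1% higher and 8.96% lower in EpiSC). On chip 2 alone, where EsrrbNeg and EsrrbMed have 1 array each, these counts were 1373 from EsrrbNeg and 3513 from EsrrbMed. Within the ESC line, EsrrbNeg differed from EsrrbMed in 1319 features (11.9%; 5.73% higher and 6.17% lower in EsrrbNeg) and EsrrbMed from EsrrbHi in 131 (1.18%; 0.478% higher and 0.703% lower in EsrrbMed). For Fgf5, EpiSC was 5.31 above EsrrbHi, 5.12 above EsrrbMed and 2.14 above EsrrbNeg, whose own arrays measured 7.21, 6.95 and 8.76. The last of these values is EsrrbNeg replicate 3, the array on chip 2, and on chip 2 alone the EpiSC mean was 5.46 above EsrrbMed. Tfcp2l1 was lower in EpiSC by −4.71 against EsrrbHi, −3.95 against EsrrbMed and −0.82 against EsrrbNeg. Scd1 differed by 3.16, 3.14 and 2.24 in the same order, Zfp42 by −5.72, −5.49 and −2.12, and Pou3f1 by 3.03, 1.85 and −0.55. Streak genes had some signal in EsrrbNeg, highest on its chip 2 array: Cdx2 measured 7.85, 8.73 and 8.74 in EpiSC and 5.15, 4.88 and 6.50 in EsrrbNeg, and Gsc 8.03, 7.92 and 7.79 in EpiSC and 4.50, 4.73 and 6.31 in EsrrbNeg. Every EpiSC array was above every EsrrbNeg array in both. Histone genes (18 of 36 higher, median 0.60), genes of serine metabolism and amino acid stress (10 of 16 higher, median 0.86) and sterol genes (7 of 13 higher, median 0.64) were also higher in EpiSC than in EsrrbNeg.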

How the data were processed

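RNA of 12 samples was hybridised to Illumina MouseWG-6 v2 BeadChips on 2 chips. The authors deposited linear bead intensity values per probe without normalisation, each with a detection p-value against negative control beads, and a table of log2 values that the authors had quantile normalised and corrected for batch with ComBat after reading the arrays with beadarray. Versions of these tools are not given in the sources used here. Groups and replicate numbers come from the sample labels. Replicate numbers did not pair the EpiSC with the EsrrbMed samples: same-numbered arrays of these groups deviated from their group means with correlations of 0.0203, −0.0313 and −0.0522. Pairing by number among the ESC fractions was not tested.

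From the deposited intensities, normexp background correction from the detection p-values, an offset of 16, quantile normalisation and log2 were applied (neqc in limma 3.58.1, R 4.3.3). Of 45281 probes, 14834 with a detection p of at most 0.01 on all 3 arrays of 1 group were kept; 32093 probes had 1 gene symbol in the platform annotation, 16 several and 13172 none, and 99.82% of the annotated gene identifiers were in the RefSeq table. The probe with the highest mean stood for a gene, which left 11089 features. For 345 of 845 called genes with several kept probes, another probe was not called the same way, and for 5 genes probes were called in opposite directions.

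The limma model held group and chip for all 12 arrays, with the contrast EpiSC minus EsrrbMed, empirical Bayes moderation and Benjamini-Hochberg adjustment over all features. All adjusted p-values are from limma. A feature was called at an adjusted p of at most 0.05 and a change of at least 1.5-fold. Named genes were the 12 largest rises and 12 largest falls (probes lacking a symbol left out) whose groups did not overlap on the same side of EsrrbMed replicate 3, then Esrrb, Nanog, Pou5f1 and Sox2, and up to 6 called members of each gene list by size of change, or, in a list without a call, its brightest member; members not called could be named with their values. The 36 gene lists, their members and the comparisons were chosen with earlier results of these data known. Lists share members, so their counts are not independent. The test was tested on simulated data with 200 of 11089 features changed, and it called 94 of 100 at a log2 change of 1, 100 of 100 at 2 and 8 of 10889 unchanged ones. The simulated spread and chip difference followed the model itself, and far fewer features changed than were called here. The simulation therefore checks the fit and does not show how the test performs on these samples. Figures were drawn with matplotlib 3.10.9 in Python 3.11.15.

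Promoter windows (250 bases before to 50 after the start) and chromosomes came from RefSeq tables of GRCm38.p6, read only for gene names, gene order and sequence. Promoters on chromosome 18 were left out of the motif search and of its background shares. Alternatives covered the background correction, the normalisation, the deposited log2 table, the filter, the choice of probe, the chip term, the arrays in the fit, the threshold and leaving out each array.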

Additional observations from a re-analysis of the deposited data

How the results depend on the processing

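No feature called in EpiSC against EsrrbMed had the opposite sign under an alternative in which it was called. Counts depended on the background correction and offset; the cause was not tested. Without background correction, 1438 features were called (822 higher and 616 lower in EpiSC; 1679 against EsrrbHi, 837 against EsrrbNeg, 38 between chips, and 159 list members in place of 240). An offset of 50 gave 2063 (1156 higher, 907 lower; 2339 against EsrrbHi, 1263 against EsrrbNeg, 86 between chips). The deposited log2 values gave 1466 without a chip term (844 higher, 622 lower; 1670 against EsrrbHi, 881 against EsrrbNeg) and 1441 with it (821 higher, 620 lower; 1647 against EsrrbHi, 858 against EsrrbNeg), and 0 between chips with limma (41 of 9990 features at an unadjusted p under 0.05). Median scaling gave 426 features between chips and moved the split of calls in EpiSC from 56% to 50.6% higher. Detection on all 12 arrays left 8556 features, of which 1200 were higher in EpiSC; chip 2 alone gave 1373 against EsrrbNeg; and a threshold of 2-fold gave 1502 (853 higher, 649 lower; 146 list members). The median distance over the 9 pairs of an EpiSC and an EsrrbMed array was 0.806, and 0.493 without background correction, 0.595 with an offset of 50, 0.511 in the deposited values, 0.785 with the chip term removed and 0.493 with no filter.

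Leaving out single arrays gave 3092 (without EsrrbMed replicate 3) to 3605 calls (without EsrrbNeg replicate 3). With the replicate number as a block in place of the chip, 3559 features were called (1929 higher, 1630 lower), and 3672 with block and chip together (2017 higher, 1655 lower). The numbers did not pair the EpiSC with the EsrrbMed samples, and pairing among the ESC fractions was not tested. Of the 173 genes named by the rule, 45 lost a call or changed sign under at least 1 alternative, 37 of them without background correction. The change of Atp5b in EpiSC against EsrrbMed, never called, turned to −0.20 with median scaling, −0.0584 and −0.0442 in the deposited values without and with a chip term, −0.0596 without a chip term and with the block in its place, and ranged from −0.00843 (without EsrrbMed replicate 3) to 0.045 over the arrays left out. Chip and group could be separated only through the ESC arrays, and genes near background have folds that rest on the offset.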

Other observations

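Immediate early genes, which respond to growth factors within minutes, were gathered after their values were seen. Of 18 listed, 13 were tested, 7 rose in EpiSC and none was called lower (limma; the lowest change was −0.10 for Myc), and 10 of the 13 were highest in EpiSC replicate 2. Over all features the highest EpiSC array was replicate 1 for 3579, replicate 2 for 3644 and replicate 3 for 3866. Egr3 measured 5.94, 7.66 and 5.66 in EpiSC and 4.20, 4.31 and 4.21 in EsrrbMed (1.93 ± 0.46), and Junb 6.72, 8.25 and 6.61 in EpiSC and 6.53, 6.82 and 6.30 in EsrrbMed (0.76 ± 0.37, not called). Ccn1, a matricellular protein, rose by 1.26 ± 0.19 without such a gap, at 6.86, 6.30 and 6.50 in EpiSC and 4.98, 4.88 and 5.20 in EsrrbMed. EpiSC replicate 2 was thus high for most of these genes, as it was for Dppa5a, Klf2, Ooep and Rps4l.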
